A study of Drosophila melanogaster with 10 samples.

Results

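The Imd pathway is the branch of Drosophila innate immunity that answers mainly to bacterial peptidoglycan of the diaminopimelic acid type. Receptors of the peptidoglycan recognition protein (PGRP) family bind the peptidoglycan and recruit the adaptor Imd. The signal then passes through a caspase and kinases to the NF-kappaB factor Relish, which switches on antimicrobial peptide genes together with genes that damp the pathway. S2 cells, an embryonic line with haemocyte-like properties, carry a working Imd pathway and are widely used to study it.

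The genes described here were chosen by name: pirk, imd, Rel, PGRP-LC, PGRP-LE, PGRP-LB and AttD. They and the gene lists below were chosen with earlier results of these data known. Counts set beside the share of all probe sets are therefore descriptions and no test of enrichment. A gene entered where a probe set was annotated to it alone. This held for 6 of the 7 genes, with 1 probe set each, among 11982 genes and 18769 probe sets tested. PGRP-LC, the main cell surface receptor of the pathway, had no probe set named in this way and is not analysed here.

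Libraries came from S2 cells sorted by DNA content into G1 and G2/M. Stable lines had been treated with CuSO4 to start the knockdown of SLIMP, an insect mitochondrial relative of seryl-tRNA synthetase. The labels give 3 libraries per phase to control cells, described as WT, and 2 per phase to SLIMP knockdown cells. Whether the control cells also received copper, and whether a line was 1 clone, is not given in the sources used here. RNA from 25000 cells per sample was amplified for 15 cycles and read on arrays. A culture below means the G1 and the G2/M library that share a label and a number, which are control 1, 2 and 3 and knockdown 2 and 3. The labels do not state that libraries of a group were grown separately, and the spread behind each p-value may therefore be technical only. Signals are log2 values, so a difference of 1 is a 2-fold change.

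The knockdown target did not follow the labels. Slimp read 8.68 to 9.06 in the 6 libraries labelled control 1, control 2 and knockdown 3, and 12.51 to 12.59 in the 4 libraries labelled control 3 and knockdown 2. The part of the transcript that its probe set reads was not analysed here. No direction is therefore drawn from the knockdown label, and results are given by culture. The haemocyte marker list had 11 names, with He and Hemese for the same gene, and 10 genes were measured. Its mean signal lay at 10.75 to 10.94 in G1 control and 10.67 to 10.85 in G2/M control libraries. In knockdown libraries it lay at 10.76 to 10.80 in G1 and 10.76 to 10.78 in G2/M. The fat body list (5 of 8 measured) had mean signals of 4.83 to 5.13 and the crystal cell list (4 of 4 measured) of 5.55 to 5.97 over all libraries, where array lower quartiles were 5.10 to 5.17 and array medians 6.55 to 6.61.

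The first comparison asked whether the Imd genes differ between G1 and G2/M. All 6 measured genes read lower in G2/M than in G1 in each of the 5 cultures, which 13.6% of all probe sets also did. The drop was largest for pirk, at 1.91-fold, and for AttD, at 1.62-fold, as means over cultures. PGRP-LB was 1.21-fold lower, and Rel, PGRP-LE and imd were 1.12-fold, 1.10-fold and 1.09-fold lower. In limma without a block, pirk passed the threshold (adjusted p under 0.05). That made 1 of 6 called lower, against 1.82% of all probe sets (5.22% were called in either direction). When only the brighter probe sets were kept, the share called was larger, at 1190 of 9384, with 779 of them higher in G2/M. There pirk and PGRP-LB passed without a block. With culture as a replicate block pirk, AttD and PGRP-LB passed, 3 of 6, against 9.00% of all probe sets (19.3% in either direction). Fewer cells with a transcript and less transcript per cell cannot be told apart in these sorted pools.

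**Figure D1:**
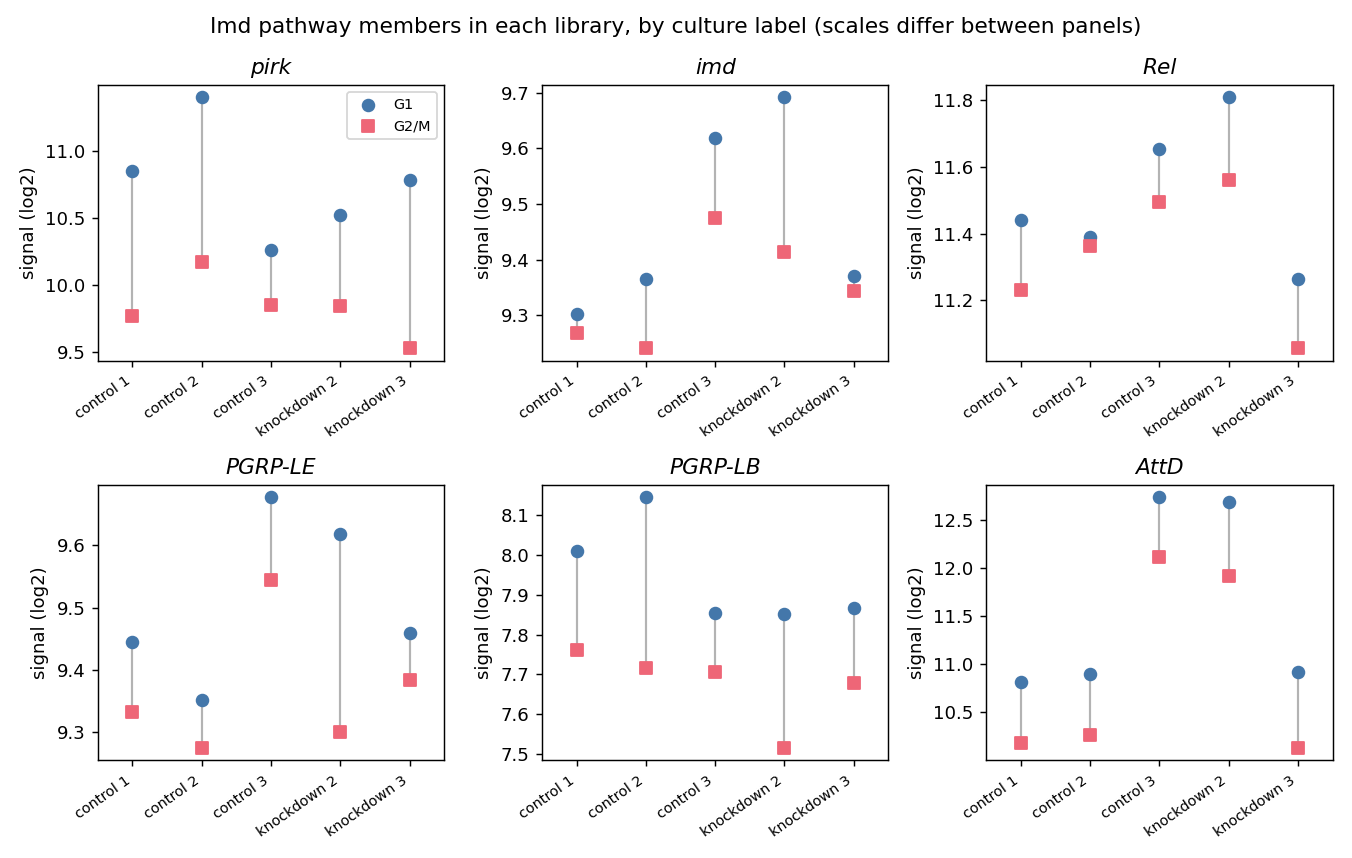
Signal (log2) of the 6 measured Imd genes in each of the 10 libraries, with cultures along the x axis by label, circles for G1 and squares for G2/M, and a grey line joining the libraries of 1 culture. Every square lies below its circle, and AttD stands high in control 3 and knockdown 2.

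Pirk is a cytoplasmic inhibitor of the pathway that binds PGRP-LC and Imd, and its gene is a target of Relish. In G1 its signal was 10.85 in control 1, 11.40 in control 2, 10.26 in control 3, 10.52 in knockdown 2 and 10.78 in knockdown 3. In G2/M the same cultures read 9.77, 10.17, 9.85, 9.84 and 9.53. All 5 G2/M libraries lay below all 5 G1 libraries, as they did for 3.35% of all probe sets. The mean fell from 10.76 ± 0.43 (SD, n = 5) to 9.83 ± 0.23 (SD, n = 5), a difference of -0.93 ± 0.20 (SE) with an adjusted p of 0.0298 in limma. With the culture block the SE was 0.12, the 95% interval -1.21 to -0.65 and the adjusted p 0.00152.

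The size of the pirk difference was uneven between cultures. It was -1.08 in control 1, -1.23 in control 2 and -1.26 in knockdown 3, but -0.41 in control 3 and -0.68 in knockdown 2. G1 signals spread over more than 1 log2 unit, from 10.26 to 11.40, and G2/M signals from 9.53 to 10.17. The call without a block was lost when 1 of several libraries was left out. These were G1 control 1 (adjusted p = 0.0651 in limma), G2/M control 1 (0.0985), G2/M control 2 (0.0640), G2/M control 3 (0.0573), G1 knockdown 2 (0.0595), G1 knockdown 3 (0.0827) and G2/M knockdown 3 (0.108). Without the culture labelled control 1, control 2, knockdown 2 or knockdown 3 the unblocked adjusted p lay between 0.0803 and 0.223. With the culture block pirk stayed past the threshold without any 1 culture, with differences of -1.06 to -0.85 and adjusted p-values of 0.00164 to 0.00698 in limma.

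AttD encodes Attacin-D, a member of the attacin family of antimicrobial peptides directed at Gram-negative bacteria. Its G1 signal was 10.82 in control 1, 10.90 in control 2, 12.74 in control 3, 12.70 in knockdown 2 and 10.92 in knockdown 3. In G2/M it was, in that order, 10.18, 10.26, 12.12, 11.92 and 10.13. G1 and G2/M libraries overlapped over the whole series, because control 3 and knockdown 2 stood high in both phases. Within cultures the phase difference was the most even of the 6 genes, at -0.64, -0.64 and -0.62 in control 1, 2 and 3 and -0.78 in both knockdown cultures.

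The mean AttD difference was -0.69, with an SE of 0.59 and an adjusted p of 0.614 in limma without a block. With the culture block the SE was 0.05, the 95% interval -0.81 to -0.57 and the adjusted p 0.000192 in limma. Without any 1 culture the blocked difference lay between -0.71 and -0.67, past the threshold each time.

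PGRP-LB is an amidase that cuts peptidoglycan into fragments that no longer stimulate the pathway. Its probe set is of a type that matches several transcripts. In G1 the cultures read, in the same order, 8.01, 8.15, 7.85, 7.85 and 7.87, and in G2/M they read 7.76, 7.72, 7.71, 7.52 and 7.68. As for pirk, no G2/M library reached the lowest G1 library. The mean went from 7.95 ± 0.13 (SD, n = 5) to 7.68 ± 0.09 (SD, n = 5), a difference of -0.27 ± 0.07 (SE). This missed the threshold without a block (adjusted p = 0.0596 in limma) and passed it with the culture block (adjusted p = 0.0128). Without the culture labelled control 2, where the difference was -0.43, the blocked value was -0.23 and the adjusted p 0.0565 in limma. Without the G1 library labelled control 3 the unblocked difference was -0.31 and passed (adjusted p = 0.0333 in limma).

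The remaining genes encode the intracellular receptor PGRP-LE, the death-domain adaptor Imd and the transcription factor Relish, and none passed in either fit. PGRP-LE differed by -0.14 with a blocked 95% interval of -0.27 to -0.02 (adjusted p = 0.116 in limma), and its differences ran from -0.32 in knockdown 2 to -0.08 in control 2 and knockdown 3. The imd difference was -0.12, with an interval of -0.25 to 0.01 (adjusted p = 0.184 in limma). For Rel it was -0.17, with an interval of -0.29 to -0.05 (adjusted p = 0.0610 in limma), and values from -0.25 in knockdown 2 to -0.02 in control 2. These intervals are not adjusted for the number of probe sets. G1 and G2/M libraries overlapped for all 3 genes, with imd at 9.30 to 9.69 in G1 and 9.24 to 9.47 in G2/M, PGRP-LE at 9.35 to 9.68 and 9.28 to 9.54, and Rel at 11.26 to 11.81 and 11.06 to 11.56.

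**Figure D2:**
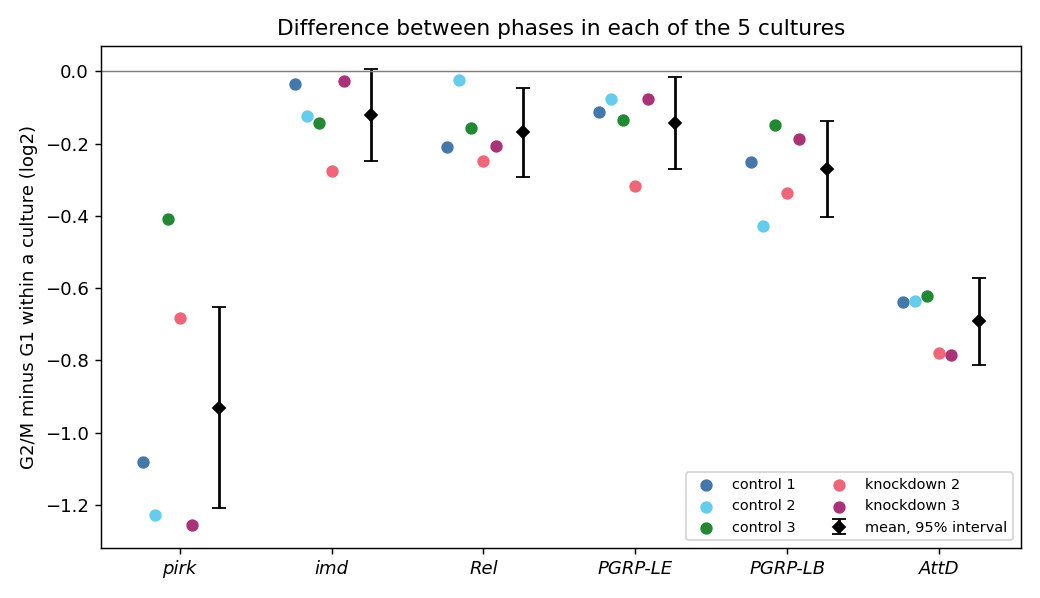
G2/M minus G1 (log2) within each of the 5 cultures for the 6 genes, with coloured points for cultures and a black diamond for the mean with its 95% interval from the fit with culture as block. The AttD points lie within -0.78 to -0.62, and the pirk points spread from -1.26 to -0.41.

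The phase comparison was also made within each label. In control libraries pirk differed by -0.91 and AttD by -0.63, and with the culture block both passed (adjusted p = 0.0193 and 0.00392 in limma), against 4.43% of all probe sets called lower. In knockdown libraries AttD differed by -0.78 and passed with the block (adjusted p = 0.00874 in limma), against 0.890% of all probe sets, while pirk differed by -0.97 with an adjusted p of 0.0647. Without a block no member was called in either label, with 0.272% of all probe sets called lower in control and 0% in knockdown (1724 probe sets at an unadjusted p under 0.05). The smallest unblocked adjusted p was that of pirk in control, at 0.135 in limma, and without the G1 library labelled control 3 the difference was -1.19 and passed (0.0442). The interaction, which tests whether the phase difference depends on the label, was not called for any probe set (0%) with or without the block, where 678 and 333 probe sets had an unadjusted p under 0.05. Its blocked estimate was -0.06 for pirk, with a 95% interval of -0.67 to 0.55, and -0.15 for AttD, with an interval of -0.40 to 0.10.

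Signals of other genes moved with phase in the same libraries. MtnB, a metallothionein gene that copper induces, fell by 1.58 in G2/M on average (adjusted p = 0.0281 in limma), with differences of -1.95 to -1.08 in the 5 cultures. The haemocyte surface gene He fell by 0.33 (adjusted p = 0.0493 in limma), 1 of 10 measured haemocyte markers called without a block, against 5.22% of all probe sets. With the block 3 of 10 haemocyte markers were higher and 2 lower, against 19.3% of all probe sets in either direction. The higher ones were Pxn (0.34), Hml (0.21) and Nplp2 (0.20), and the lower ones He and NimC1. Hml and NimC1 were named after their values were seen. The lamellocyte marker list (5 of 5 measured) had mean signals of 8.84 to 9.06, with gene means from 6.23 for atilla to 11.33 for cher. Its member mthl4 fell by 0.45 (adjusted p = 0.0452 in limma). It was the 1 of 5 called without a block, against 5.22% of all probe sets. Of the 5 genes 4 read lower in G2/M on average and 1, PPO3, read higher by 0.10. The part of these genes or of copper in the Imd gene differences was not tested.

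The second comparison asked whether the Imd genes differ among the 5 cultures, with phase in the model. AttD and Rel were called by limma's moderated F-test, 2 of 6, against 11.5% of all probe sets (2165 of 18769). The 2 libraries of a culture served as its repeats in this test. AttD gave an adjusted p of 5.13e-06, and Rel 0.0223. The others gave 0.137 for pirk, 0.144 for imd, 0.241 for PGRP-LE and 0.349 for PGRP-LB.

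The culture mean of AttD was 12.43 for control 3, 12.31 for knockdown 2, 10.58 for control 2, 10.52 for knockdown 3 and 10.50 for control 1. The order thus ran across the labels, with 1 control and 1 knockdown culture at the top. The highest and the lowest culture differed 3.81-fold. Of the 10 pairs of cultures 6 passed, each joining control 3 or knockdown 2 to one of the other 3 cultures, with differences of 1.72 to 1.93 and adjusted p-values of at most 1.89e-05 in limma. Between neighbours in the order, the step from knockdown 2 to control 2 was 1.72 ± 0.08 (SE) and passed, while the steps of 0.12, 0.06 and 0.02 did not. Control 3 and knockdown 2 were also the cultures with the high Slimp signal. The haemocyte marker list had 4 of 10 measured genes called among cultures by the F-test, against 11.5% of all probe sets. Nplp2 was highest in the same cultures, at 12.04 and 11.66 against 10.75 to 11.01, while Pxn (11.40 and 11.45 against 11.99 to 12.22), vkg and NimC1 were lowest there. NimC1 was named after its values were seen. Crystal cell, lamellocyte and fat body lists had none called. The part of Slimp or of the marker genes in the AttD difference was not tested. AttD stayed called among the cultures when any 1 was left out, with adjusted p-values of 2.17e-05 to 0.000209 in limma. Of all probe sets, 11.8%, 10.8% and 7.82% were called between control 3 and control 1, control 2 and knockdown 3, and 8.63%, 6.53% and 8.95% between knockdown 2 and the same cultures. The other pairs had 0.0426% (control 1 with control 2), 0.133% (control 2 with knockdown 3) and 0% (control 1 with knockdown 3, and control 3 with knockdown 2).

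Rel had the same cultures at the top with a far smaller range. Its means were 11.68 in knockdown 2, 11.57 in control 3, 11.38 in control 2, 11.34 in control 1 and 11.16 in knockdown 3. Of its 10 pairs 3 passed, which were knockdown 2 over control 1, knockdown 2 over knockdown 3 and control 3 over knockdown 3, with differences of 0.35 to 0.52 and adjusted p-values of at most 0.0408 in limma. No step between neighbours passed. Without the culture labelled knockdown 2 or knockdown 3 the F-test no longer called Rel (adjusted p = 0.0986 and 0.0976 in limma).

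For imd the top cultures were again knockdown 2 and control 3, at 9.55 in both, over 9.36, 9.30 and 9.29 in knockdown 3, control 2 and control 1, with no pair called. PGRP-LE read 9.61 in control 3 and 9.46, 9.42, 9.39 and 9.31 in knockdown 2, knockdown 3, control 1 and control 2, again with no pair called. PGRP-LB had the reverse end at the top, with 7.93 and 7.89 in control 2 and control 1, 7.78 and 7.77 in control 3 and knockdown 3, and 7.68 in knockdown 2, and no pair was called. pirk was highest in control 2 at 10.79, followed by 10.31, 10.18, 10.16 and 10.06 in control 1, knockdown 2, knockdown 3 and control 3. The pair of control 2 and control 3 passed for pirk (0.73, adjusted p = 0.0449 in limma), and no step between neighbours did.

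**Figure D3:**
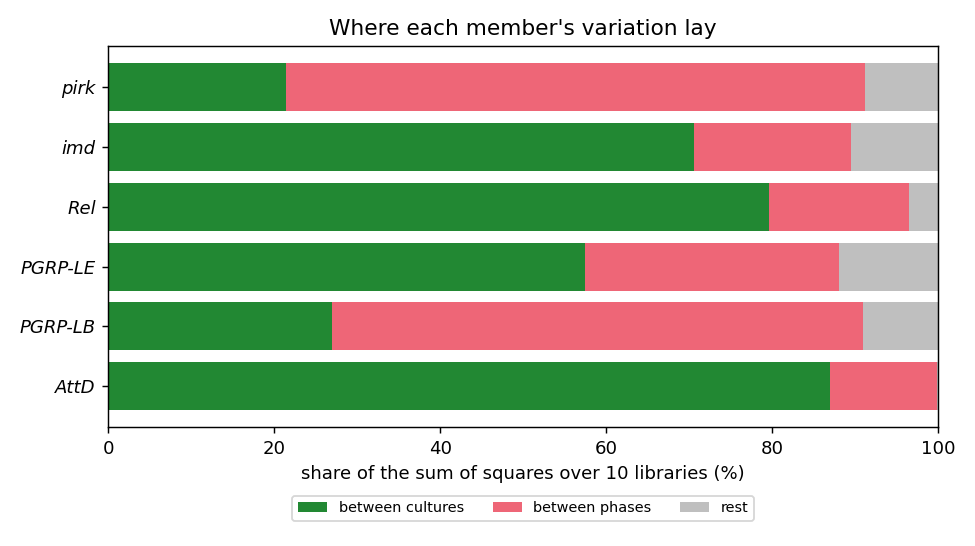
Share (%) of each gene's sum of squares over the 10 libraries that lay between the 5 cultures, between the 2 phases, and in the rest. For pirk and PGRP-LB the phase share is the widest, at 69.7% and 64.0%, and for the other genes the culture share is.

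The larger share of the variation lay between phases for some genes and between cultures for others. Phase took 69.7% of the sum of squares for pirk and 64.0% for PGRP-LB, and cultures took 21.4% and 27.0%. Cultures took 87.0% for AttD, 79.6% for Rel, 70.6% for imd and 57.5% for PGRP-LE, and phase 12.9%, 16.8%, 18.8% and 30.5%. Over all probe sets the medians were 49.7% for cultures and 12.5% for phase. There are more cultures than phases, so a larger culture share is expected without any effect. Neither imd nor PGRP-LE was called among cultures. AttD left 0.146% to neither, against a median of 23.2%. The range over the 10 libraries was 2.61 for AttD and 1.87 for pirk, which 0.288% and 1.13% of all probe sets matched or passed, and it was 0.40 to 0.75 for the other 4 genes.

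Between the labels no member was called in G1 or in G2/M, and limma called 0% of all probe sets in each, with 482 and 164 at an unadjusted p under 0.05. AttD differed by 0.32 in G1 (knockdown minus control), with a 95% interval of -1.61 to 2.25, and by 0.17 in G2/M, with an interval of -1.76 to 2.10. These AttD values had no stable sign. In G1 the difference was -0.57 without the library, or the whole culture, labelled knockdown 2, and -0.02 without control 1. In G2/M it was -0.72 without knockdown 2, -0.17 without control 1 and -0.13 without control 2. pirk differed by -0.18 in G1, with an interval of -0.82 to 0.46, and by -0.25 in G2/M, with an interval of -0.89 to 0.39. Without the control 2 library the G1 difference of pirk was 0.10. The other 4 genes differed by -0.14 to 0.10 in G1 and by -0.13 to 0.05 in G2/M.

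Among other antimicrobial peptide genes (6 of 14 listed had a probe set of their own), 4 differed among cultures, against 11.5% of all probe sets: DptB, Drs, CecB and edin. DptB, for a diptericin, had culture means of 11.41 in control 3 and 11.14 in knockdown 2, against 10.08, 10.04 and 9.95 in control 1, control 2 and knockdown 3 (adjusted p = 6.74e-05 in limma). Drs, for the antifungal peptide drosomycin, read 11.75 and 11.61 in control 3 and knockdown 2 against 11.06 to 11.13 in the others (adjusted p = 0.00201 in limma). For AttD, DptB and Drs the same 6 pairs of cultures passed, as they did for POSH, egr and wgn described below. In these 6 pairs 6.53% to 11.8% of all probe sets were called, against 0% to 0.133% in the other pairs. CecB, for a cecropin, read 7.82 and 7.81 in control 3 and knockdown 2, 7.49 in control 2 and 7.30 in the others (adjusted p = 0.0228 in limma). The infection-induced gene edin stood highest in control 3 at 10.83, with 10.44 in knockdown 2 and 10.11 to 10.25 in the others (adjusted p = 0.0265 in limma). The cultures labelled control 3 and knockdown 2 had the highest means for AttD and these 4 genes. Of the other measured peptide genes, Def, the defensin gene, had its lowest means there, at 6.07 and 6.05 against 6.30 to 6.36, and Mtk, for metchnikowin, read 11.69 and 11.58 against 11.45 to 11.51. Neither was called among cultures.

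**Figure D4:**
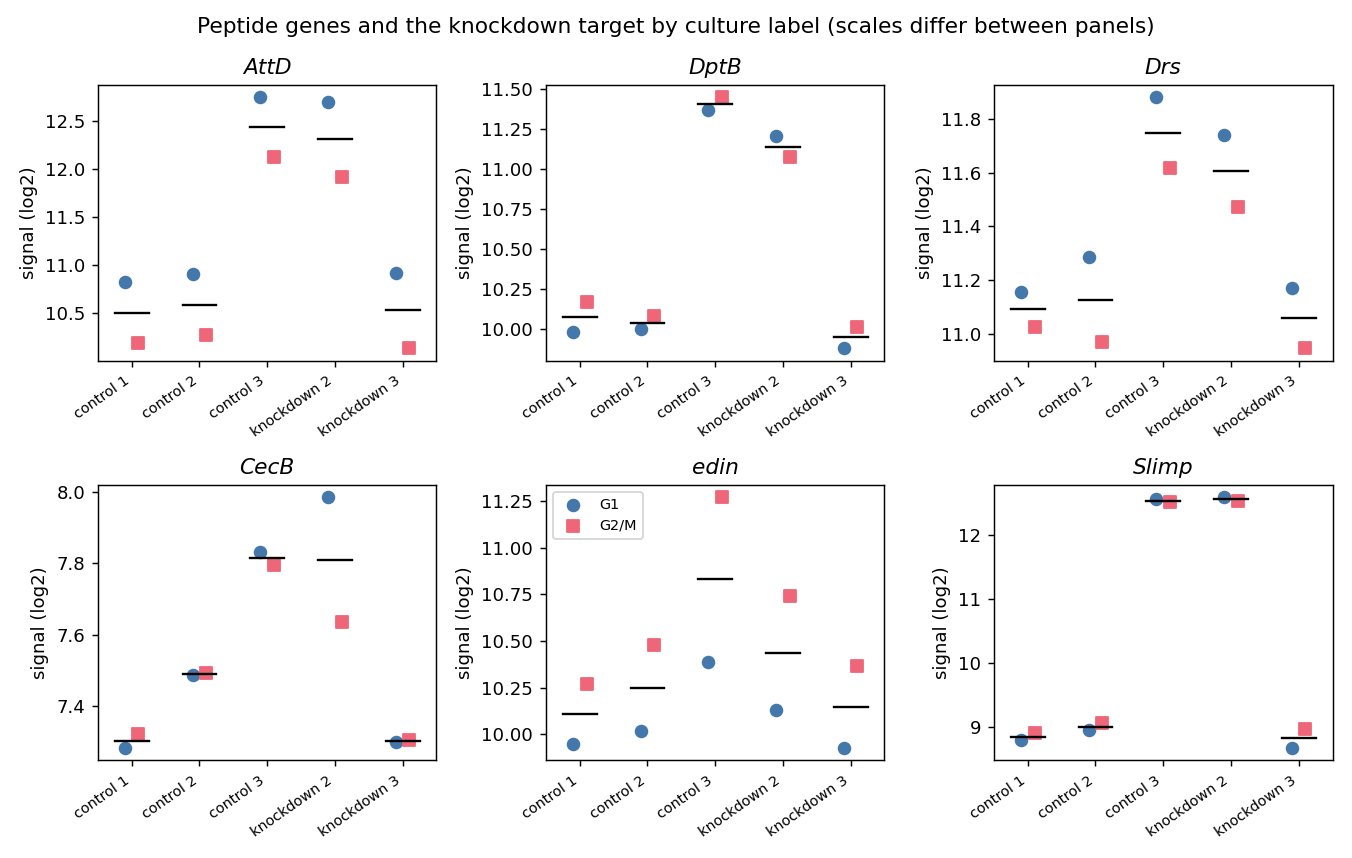
Signal (log2) of AttD, 4 other peptide genes and Slimp by culture label, with circles for G1, squares for G2/M and black bars for the mean of the 2 libraries. AttD, DptB, Drs, CecB, edin and Slimp all have their highest bars in control 3 and knockdown 2, and AttD and edin move in opposite directions between phases.

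Between phases the peptide genes did not move together. None of the 6 passed without a block. With the culture block 3 of 6 passed, against 19.3% of all probe sets. Drs was lower in G2/M (-0.24, adjusted p = 0.0124 in limma), while edin was 0.54 higher (adjusted p = 0.00245) and Def 0.34 higher (adjusted p = 0.0164). The Def signal was dim, with a mean of 6.22 where array medians were 6.55 to 6.61. The median difference of the list was 0.08, against 0.00 over all probe sets. edin was higher in G2/M in 5 of 5 cultures, by 0.32 to 0.88, and Drs lower in 5 of 5, by -0.32 to -0.13. DptB differed by 0.07, with values of both signs. Def and Mtk were named after their values were seen, as were Bap60, trbd, CYLD, kay and Jra below.

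In the signalling core downstream of the receptors, 11 of 13 genes were measured. Fadd, for the adaptor that links Imd to the caspase Dredd, rose by 0.30 in G2/M (adjusted p = 0.0340 in limma without a block), the 1 of 11 called in that fit, against 5.22% of all probe sets. With the culture block 4 of 11 were called, against 19.3% of all probe sets. Fadd was higher, as were mor (0.26) and Bap60 (0.23), both for subunits of the Brahma chromatin remodelling complex, and Tab2, for the partner of the kinase Tak1, fell by 0.49 (adjusted p = 0.00151). The list median was -0.00. Among cultures mor (adjusted p = 0.0412) and Tab2 (adjusted p = 0.0479) were called in limma, 2 of 11, against 11.5% of all probe sets. mor was lowest in control 3 at 8.44 and highest in control 1 at 9.05.

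Of the negative regulators and other PGRP genes 13 of 18 were measured, with a median phase difference of -0.09. None was called without a block. With the culture block 4 of 13 were lower in G2/M and none higher, against 9.00% of all probe sets called lower and 19.3% in either direction. The lower ones were dnr1, POSH, PGRP-LF and trbd. dnr1, for a RING-domain inhibitor of Dredd, fell by 0.79 (adjusted p = 0.000127 in limma), with differences of -0.89 to -0.67 in the 5 cultures. POSH, for a scaffold that promotes the turnover of Tak1, fell by 0.49 (adjusted p = 0.000912). PGRP-LF, for a decoy of PGRP-LC, fell by 0.39 (adjusted p = 0.0100), and trbd, for a deubiquitinase, fell by 0.33 (adjusted p = 0.0235).

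The same list had 6 of 13 genes called among cultures, against 11.5% of all probe sets, which were dnr1, POSH, PGRP-LF, PGRP-SB1, trbd and CYLD. POSH read 9.16 and 9.07 in knockdown 2 and control 3 and 8.68, 8.29 and 8.14 in control 2, control 1 and knockdown 3 (adjusted p = 0.000575 in limma). PGRP-SB1, for a secreted amidase, stood apart in control 3 alone, at 9.06 against 7.99 to 8.13 (adjusted p = 0.00720 in limma). dnr1 was lowest in control 1 and knockdown 3, at 6.51 and 6.52, against 7.08 to 7.19 (adjusted p = 0.00261 in limma). PGRP-LF was highest in knockdown 2 at 9.02 and lowest in knockdown 3 at 8.22 (adjusted p = 0.0289).

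**Figure D5:**
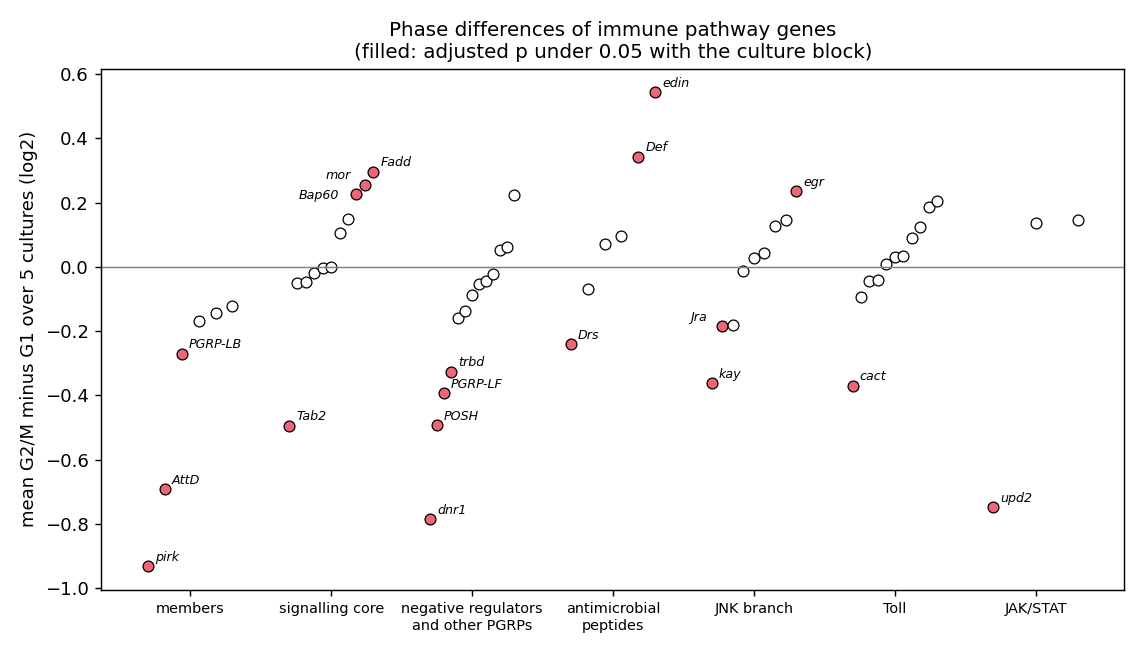
Mean G2/M minus G1 over the 5 cultures (log2) for each measured gene of 7 immune lists, with a point for each gene, filled and named where it passed with the culture block. The 6 Imd genes all lie below 0, and filled points lie on both sides of 0 in the signalling core, peptide and JNK lists.

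Of the neighbouring immune pathways, the JNK, Toll and JAK/STAT lists had no phase call without a block, where 5.22% of all probe sets were called. With the block 3 of 9, 1 of 11 and 1 of 3 measured genes were called, against 19.3% of all probe sets. In the JNK branch (9 of 10 measured, median difference 0.03), kay (-0.36) and Jra (-0.18), the Fos and Jun genes, were lower with the block and egr, the TNF ligand gene, was higher (0.24). Among cultures egr and its receptor gene wgn were called, 2 of 9, against 11.5% of all probe sets (adjusted p = 0.00921 and 0.00466 in limma). Both were lowest in control 3 and knockdown 2, with egr at 11.72 and 11.70 against 12.23 to 12.30, and wgn at 10.07 and 10.25 against 10.71 to 10.82. In the Toll pathway (11 of 12 measured, median 0.03), the inhibitor gene cact fell by 0.37 with the block (adjusted p = 0.00319), and cact, the receptor gene Tl and the Pellino gene Pli, 3 of 11, were called among cultures. cact read 11.21 and 11.09 in knockdown 2 and control 3 against 10.65 to 10.82 in the others.

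JAK/STAT genes were measured for 3 of 8, and none was called among cultures or without a block. The ligand gene upd2 had the smallest p, at -0.75 with an unblocked adjusted p of 0.0587 and a blocked one of 0.00219 in limma. The receptor gene dome differed by 0.14 (adjusted p = 0.221 without a block).

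Likeness of pattern was measured as the root mean square difference between profiles over the 10 libraries, each centred on its own mean. The genes nearest to AttD were TpnC4, a troponin C gene, at 0.157, ome at 0.174, and Glyp, the glycogen phosphorylase gene, at 0.228. AttD itself varied by 0.964 around its mean. TpnC4 read 7.86 and 7.67 in the G1 libraries labelled control 3 and knockdown 2 and 5.91 to 6.25 in the other G1 libraries. Nearest to pirk were the cohesin loader gene Nipped-B at 0.101, the cytochrome P450 gene Cyp9c1 at 0.120 and upd2 at 0.129, where pirk varied by 0.558. Nipped-B, from a probe set that matches several transcripts, fell from 7.09 to 6.23 in control 1 and from 6.48 to 6.25 in control 3. These are descriptions of 10 libraries. The genes were picked for likeness over the same libraries, so their values are no further evidence of a pattern.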

How the data were processed

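The deposited values are log2 signals, 1 per probe set, and the submitters' processing notes name RMA, with no version or genome build given in the sources used here. Since RMA equalises the arrays' distributions, a shift of nearly all transcripts in 1 sample is removed. Of 18952 probe sets, 183 array controls were left out and no filter on dim signal was applied. The platform annotation gave 1 symbol to 13647 probe sets, several to 402 and none to 4720. Of the 13647, 13544 were matched by gene identifier to a RefSeq gene table for assembly Release 6 and took its symbol. No sequence tables were used here.

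All 10 arrays were fitted in limma 3.58.1 (R 4.3.3) with 1 coefficient per group, 2-sided, with Benjamini-Hochberg adjustment over 18769 probe sets and a threshold of 0.05 (residual df 6, prior df 3.09). The phase contrast over 5 cultures weights cultures equally. The blocked fit adds culture (residual df 4, prior df 4.70), and the same model gave the moderated F-test among cultures and the 10 pairwise contrasts, each adjusted over all probe sets. Fits were tested on simulated data with independent noise and shifts added to chosen probe sets. The other probe sets had no culture differences there, so how the fits behave with paired libraries was not tested. The culture pairing rests on the labels' shared numbers. Deviations from group means were also correlated between the G1 and G2/M libraries of a culture (0.514 to 0.685). With 2 knockdown libraries per phase these deviations mirror each other, so both knockdown cultures gave the same 0.655 by construction. Libraries of a group differed by a median of 0.0894 to 0.176 (log2), so none was a copy. The number of arrays limits the precision.

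For a list gene with several probe sets, the one of highest mean signal was taken. Named genes were all members, up to 4 genes per list with the smallest p among those called without a block or among cultures (2 where none was), and the 3 nearest profiles for members with a range of at least 1. The members and lists were chosen with earlier results of these data known. Alternatives were culture or replicate number as block, quantile normalization, cyclic loess, brighter probe sets only, trended robust eBayes, control libraries alone, and leaving out each library or culture. Leaving out cultures in the label contrasts and in the blocked fit was chosen after seeing the data.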

Additional observations from a re-analysis of the deposited data

How the results depend on the processing

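With 2 or 3 libraries per group, most counts moved with single libraries, and the number of arrays limits all of them. Over the 5 cultures, 979 probe sets were called between phases without a block and 3623 with culture as replicate block, and the blocked count was 2189 to 3414 without 1 culture, with 2189 and 2413 without control 2 and knockdown 3. The unblocked count ran from 1 to 1074 when 1 library or culture was left out. It was 1, 24, 613 and 27 without the culture control 1, control 2, knockdown 2 and knockdown 3, and 246, 386, 259, 620, 449 and 276 without the libraries G2/M control 1, G1 control 2, G2/M control 2, G1 knockdown 2, G1 knockdown 3 and G2/M knockdown 3. Of the 979, 638 were higher in G2/M, against 562 of 1036 with cyclic loess. In control libraries 169 were called, against 1678 with the culture block, 254 with quantile normalization, 311 among brighter probe sets, 74 with control libraries alone in the fit, and 0 to 213 without 1 library. In knockdown libraries 0 were called, against 315 with the block, 2 each with quantile normalization, cyclic loess, brighter probe sets and trended robust eBayes, and 0 to 1 without 1 library. Among cultures 2165 were called, 3327 with trended robust eBayes and 1188 to 1801 without 1 culture, the lowest being 1188 without knockdown 2 and 1327 without control 3. Label contrasts and the interaction gave 0 calls throughout the leave-outs. The causes of these moves were not tested. PGRP-LB passed without a block with cyclic loess (adjusted p = 0.0358 in limma) and among brighter probe sets (0.0381).

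Estimates that missed the threshold changed sign in places. With replicate number as replicate block, the label difference in G1 was -0.00415 for Rel and -0.0176 for AttD, and in G2/M -0.17 for AttD. Leaving out 1 library or culture, the label difference in G1 ran from -0.47 to 0.10 for pirk, -0.0577 to 0.26 for imd, -0.23 to 0.31 for Rel, -0.0318 to 0.14 for PGRP-LE and -0.57 to 1.21 for AttD. In G2/M it ran from -0.31 to 0.20 for Rel, -0.10 to 0.04 for PGRP-LE and -0.72 to 1.06 for AttD. The next ranges are from the fit without a block. There a left-out library leaves its culture in 1 phase only, so differences among cultures enter the phase estimate. The phase difference in knockdown libraries ran from -0.31 to 0.00808 for imd, -0.50 to 0.0449 for Rel and -1.67 to 0.11 for AttD. Within cultures the AttD difference was -0.78 in both knockdown cultures. The unblocked interaction ran from -0.35 to 0.23 for pirk, -0.21 to 0.11 for imd and -0.37 to 0.18 for Rel. It ran from -0.0675 to 0.10 for PGRP-LB and -1.04 to 0.74 for AttD.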
